A study of Rattus norvegicus with 3 samples.

Results

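The interleukin-1 (IL-1) family and inflammasome genes were described in 3 cultures of F344 rats, namely bone marrow mesenchymal stem cells (MSCs), the osteosarcoma line COS1NR and the malignant fibrous histiocytoma line MFH1NR. The genes were chosen by name, as 10 genes of this pathway: the ligands Il1a, Il1b, Il18 and Il33, the antagonist Il1rn, the receptor chains Il1r2, Il1rap and Il1rl1, and the inflammasome genes Casp1 and Nlrp3. Of these 10 genes, 9 had a named probe, out of 13301 genes named on the array, and 9 of the 9 were well above background on at least 1 array. No probe was named for Nlrp3, which is not analysed here. The lines were raised from sarcomas induced by 4-HAQO, a chemical carcinogen, and carry a p53 mutation per the methods. The MSCs were isolated from femur marrow by their growth on plastic, were not sorted by surface markers, and were kept in a higher share of serum than the lines.

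IL-1α and IL-1β are the founding cytokines of the family and switch on NF-κB through a receptor built of IL-1R1 and the shared chain IL-1RAP. IL-1Ra, the product of Il1rn, blocks that receptor, and IL-1R2 is a decoy that binds IL-1 without passing on a signal. IL-1β and IL-18 are made as inactive precursors and cut by caspase-1, which is activated in the inflammasome, a complex of a sensor such as NLRP3 and the adaptor ASC. IL-1α and IL-33 need no such cut and act when released from damaged cells, and IL-33 signals through ST2, the product of Il1rl1. In bone marrow, macrophages are a rich source of IL-1β, and stromal cells respond to it with chemokines and proteases.

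Cy3-labeled cRNA of each culture was hybridized to 1 whole rat genome array, so there were no replicates, no test was possible, and nothing here measures the spread between cultures. Intensities are those of Agilent Feature Extraction, and ratios were taken after each intensity was divided by the 75th percentile of its array, which was 589 for MSCs, 774 for COS1NR and 994 for MFH1NR. Between 56.6% and 59.7% of the spots that are not controls were called well above background by Feature Extraction, and no spot was saturated. A probe without this call gives only a bound, computed against the lowest intensity well above background on that array (18.0 for MSCs, 29.4 for COS1NR and 30.1 for MFH1NR) or its own intensity where that was higher. The software's error of a log2 ratio from single spots lay near 0.2 for bright probes and reached 0.31 for dim ones. The ratios of a second probe differed from those of the first by a median of 0.28 in log2 for COS1NR over MSCs, 0.31 for MFH1NR over MSCs and 0.15 for MFH1NR over COS1NR, across 1895 genes. The sarcoma arrays lay on the same slide, and the MSC array lay on another slide, so in the ratios to MSCs the slide and the cell type cannot be told apart.

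The family did not move as a block. MSCs held the highest levels of Il1a and Il1b, MFH1NR held the lowest levels of Il1b, Il1rn, Il1r2 and Il1rl1 and the highest levels of Il33 and Casp1, and COS1NR held the lowest levels of Il18 and Casp1 and the highest level of Il1rap. Of the 9 genes, 4 were at least 2-fold lower in COS1NR than in MSCs (Il1a, Il1b, Il18 and Casp1), against 20.0% of the genes compared, and 1 was at least 2-fold higher (Il1rap), against 20.6%. In MFH1NR, 5 were at least 2-fold lower than in MSCs (Il1a, Il1b, Il1rn, Il1r2 and Il1rl1), against 21.6%, and 2 were higher (Il33 and Casp1), against 19.3%. Without scaling the lower and higher shares of all genes were 14.8% and 32.5% in COS1NR and 13.0% and 41.4% in MFH1NR, with the same counts of members. Lower in both lines were Il1a and Il1b, 2 of 9 against 12.9% of all genes, joined by Il1r2 with spike-in scaling, and none was higher in both, where all genes gave 10.8%. As these are cultures measured in bulk, fewer cells of a type and less RNA per cell cannot be told apart.

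**Figure D1:**
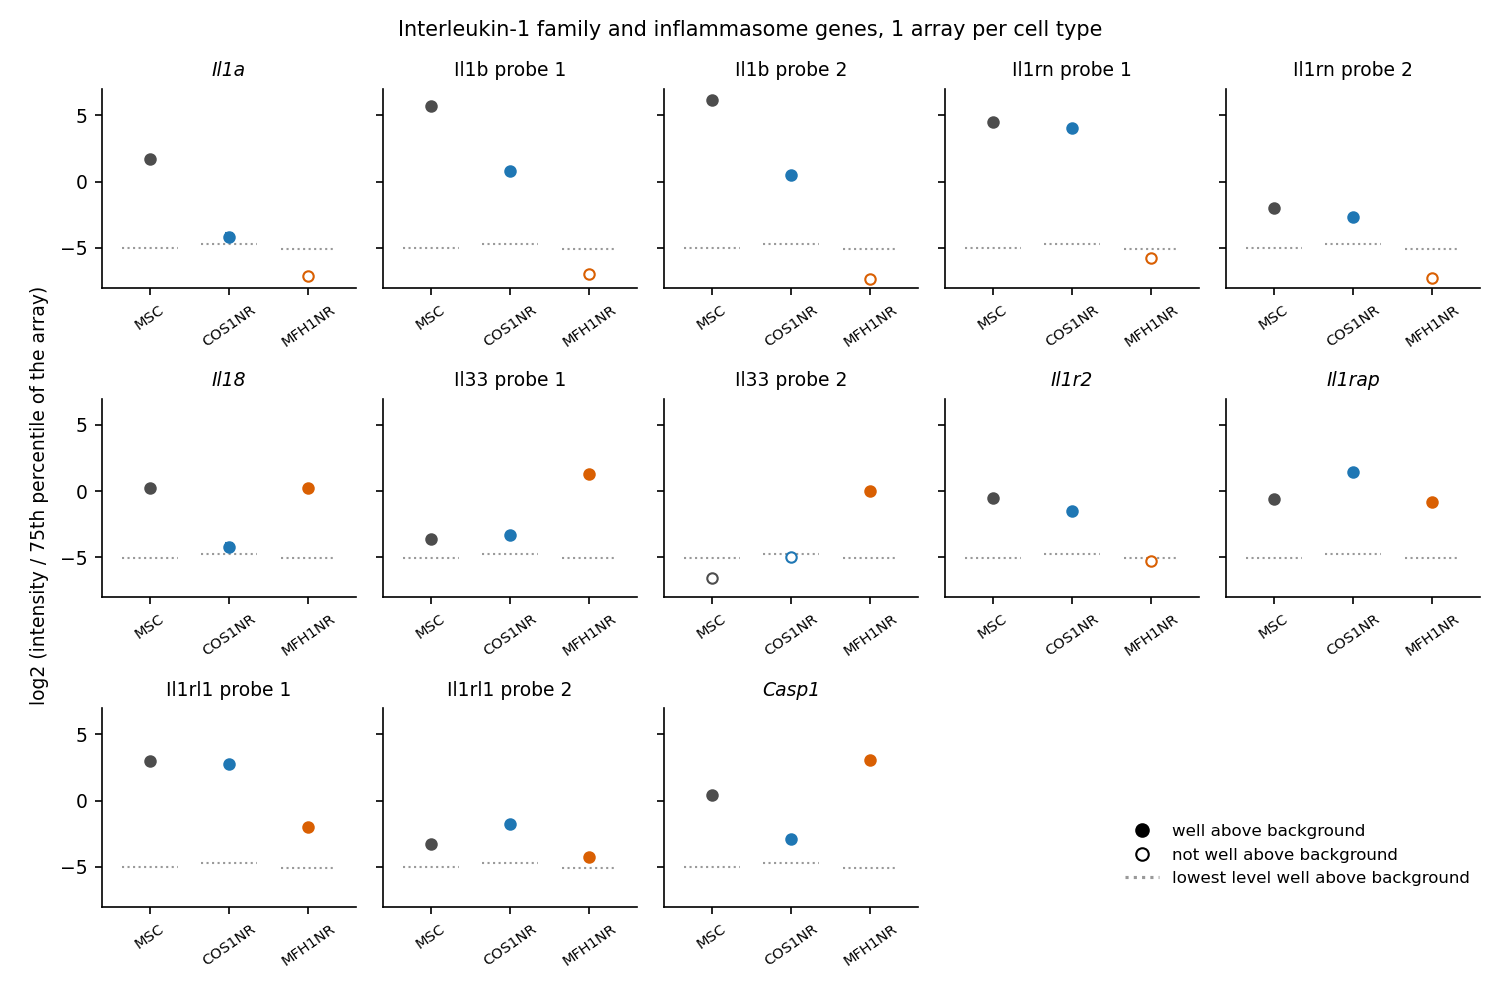
Level of each of the 13 member probes on each array, as the log2 intensity over the 75th percentile of the array, with the Feature Extraction error as bars, which are mostly smaller than the points. Open points are not well above background and dotted lines mark the lowest level that is, so the open MFH1NR points of Il1a, Il1b, Il1rn and Il1r2 give only upper limits.

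Il1a and Il1b are direct neighbours on chromosome 3 and read from the same strand. Il1a read 1924 in MSCs and 43.7 in COS1NR, and its probe was not well above background in MFH1NR, at 7.25. The level was thus high only in MSCs. COS1NR was 57.8-fold below them (log2 ratio -5.85 ± 0.31, Feature Extraction error) and MFH1NR at least 108-fold. With the normexp background correction, which draws dim intensities up, these log2 ratios were -4.49 and -5.21. Between the lines the bound was 1.87-fold, so a difference of 2-fold or more between COS1NR and MFH1NR could not be shown for Il1a at this brightness.

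Il1b was covered by 2 probes, and the first is printed 10 times on each array, of which 8 spots were kept on the MSC array after outlier spots were left out and 10 on each of the others. Its mean intensity was 30130 in MSCs, with single spots from 29126 to 31933, and 1337 in COS1NR, with spots from 1298 to 1405. In MFH1NR 0 of the 10 spots were well above background, and their mean was 8.06. The readings of this probe therefore stood in the order MSCs above COS1NR above MFH1NR, with no overlap of spots between the arrays. These spots are repeat prints on the same array, so they show the scatter within an array and not the spread between cultures. The level was 29.6-fold lower in COS1NR than in MSCs (log2 ratio -4.89 ± 0.07) and at least 1691-fold lower in MFH1NR, and the line on the same slide as MFH1NR was at least 57.1-fold above it. The second probe of Il1b read 41499 for MSCs, 1062 for COS1NR and 6.23 for MFH1NR, where it was not well above background. It gave the same order, with log2 ratios of -5.68 in COS1NR and of -11.19 as a bound in MFH1NR. Of all genes compared, 2.11% had a lower ratio of COS1NR to MSCs than the first Il1b probe, and 0.0407% a lower ratio or bound of MFH1NR to MSCs.

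The bases just before the start of Il1a and of Il1b are shown because the genes lie side by side and were both highest in MSCs. The RefSeq promoters (assembly GRCr8) were searched on both strands over 250 bases for a TATA box (TATAAA), an AP-1 site (TGANTCA), the ETS/PU.1 core (GAGGAA), a C/EBP site (TTNNGCAA) and the kappaB consensus. Capitals mark the matches. Il1a lies at chr3:136990018-136990267 and Il1b at chr3:137036582-137036831, both on the minus strand and printed 5′ to 3′ along the gene.
Il1a: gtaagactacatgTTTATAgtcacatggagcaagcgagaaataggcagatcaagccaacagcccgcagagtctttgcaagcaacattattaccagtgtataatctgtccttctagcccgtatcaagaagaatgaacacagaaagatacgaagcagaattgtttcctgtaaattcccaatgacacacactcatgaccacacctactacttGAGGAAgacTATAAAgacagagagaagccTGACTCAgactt
Il1b: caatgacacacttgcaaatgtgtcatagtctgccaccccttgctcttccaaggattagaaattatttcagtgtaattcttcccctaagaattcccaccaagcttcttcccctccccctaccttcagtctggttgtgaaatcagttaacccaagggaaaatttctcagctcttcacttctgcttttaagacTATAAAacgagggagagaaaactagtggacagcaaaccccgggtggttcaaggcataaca
Il1a held a TATA box 32 bases before the start, an AP-1 site at 12 bases, which matches the pattern on both strands, the ETS/PU.1 core at 41 bases, and a TATA match on the other strand at 237 bases. Il1b held a TATA box at 60 bases and none of the other motifs. Of 33469 promoters in the table, 12.9% held the TATA box, 6.34% the AP-1 site, 23.3% the ETS/PU.1 core, 9.22% the C/EBP site and 5.18% the kappaB consensus on either strand. These are matches of letters, and no binding was measured.

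The genes around Il1a and Il1b, looked up after the values were seen, gave a wider view of that stretch of chromosome 3. Slc20a1, a phosphate transporter gene on the Il1a side, had 21726 for MSCs, 8183 for COS1NR and 10323 for MFH1NR, a log2 ratio to MSCs of -1.80 and -1.83. Sirpa, on the Il1b side and an inhibitory receptor of macrophages, had 6696, 5176 and 11813, with ratios of -0.76 and 0.06. Neither neighbour showed a difference of the size seen for Il1a and Il1b.

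Il1rn, which encodes the IL-1 receptor antagonist, behaved differently from the ligands it opposes. Its brighter probe read 13054 in MSCs and 12434 in COS1NR, and it was not well above background in MFH1NR, at 18.4. It was thus bright in both MSCs and COS1NR, which were within 2-fold of each other (log2 ratio -0.46 ± 0.20), and MFH1NR was at least 733-fold below MSCs. Against COS1NR on the same slide MFH1NR was at least 531-fold lower, and 0.0743% of all genes had a lower ratio or bound. The second probe read 150 for MSCs, 123 for COS1NR and 6.34 for MFH1NR, not well above background there, and its dimness held the bounds to 8.42-fold and 5.24-fold in the same direction. COS1NR thus had an Il1rn level within 2-fold of that of MSCs and an Il1b level 29.6-fold below.

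Il18 and Il33 followed another pattern, Il18 with its lowest level in COS1NR and Il33 with its highest in MFH1NR. Il18, the cytokine that is processed by caspase-1 like IL-1β, read 696 for MSCs, 42.8 for COS1NR and 1193 for MFH1NR. MSCs and MFH1NR were within 2-fold, with a log2 ratio of 0.02 ± 0.20 that ran from -0.02 with quantile normalization or normexp to 0.78 without scaling, with 0.54 under spike-in scaling, and COS1NR was 21.4-fold below MSCs. Il33, the nuclear alarmin, had 48.2 for MSCs, 79.0 for COS1NR and 2448 for MFH1NR with its first probe. It was near the background limit in MSCs and COS1NR and bright in MFH1NR, which was 30.1-fold above MSCs (log2 ratio 4.91 ± 0.23) and 24.1-fold above COS1NR. The second probe of Il33 was not well above background in MSCs (6.25) or COS1NR (24.4) and read 1009 in MFH1NR. It bounded the difference at 33.2-fold against MSCs and 26.7-fold against COS1NR, so both probes placed MFH1NR far above the others. Of all genes compared, 0.356% had a higher ratio of MFH1NR to MSCs than the first probe.

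RefSeq gives Il33 more than one start, and the second is shown because it holds matches while the first holds none of the motifs. It lies at chr1:237134696-237134945 on the plus strand.
Il33, second start: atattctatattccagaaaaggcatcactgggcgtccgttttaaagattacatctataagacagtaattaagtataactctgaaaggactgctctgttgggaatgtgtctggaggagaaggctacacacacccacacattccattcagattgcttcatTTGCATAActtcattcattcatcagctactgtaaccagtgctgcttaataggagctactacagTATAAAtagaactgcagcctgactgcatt
Il33 held a TATA box 29 bases before this start and a C/EBP site at 92 bases on the other strand. The arrays do not tell which start was used. The gene just before Il33, Ranbp6, was looked up after the values were seen and had 218 for MSCs, 1077 for COS1NR and 1496 for MFH1NR, with log2 ratios of 1.91 and 2.02. It was thus higher in both lines, whereas Il33 differed from MSCs by 2-fold or more only in MFH1NR.

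**Figure D2:**
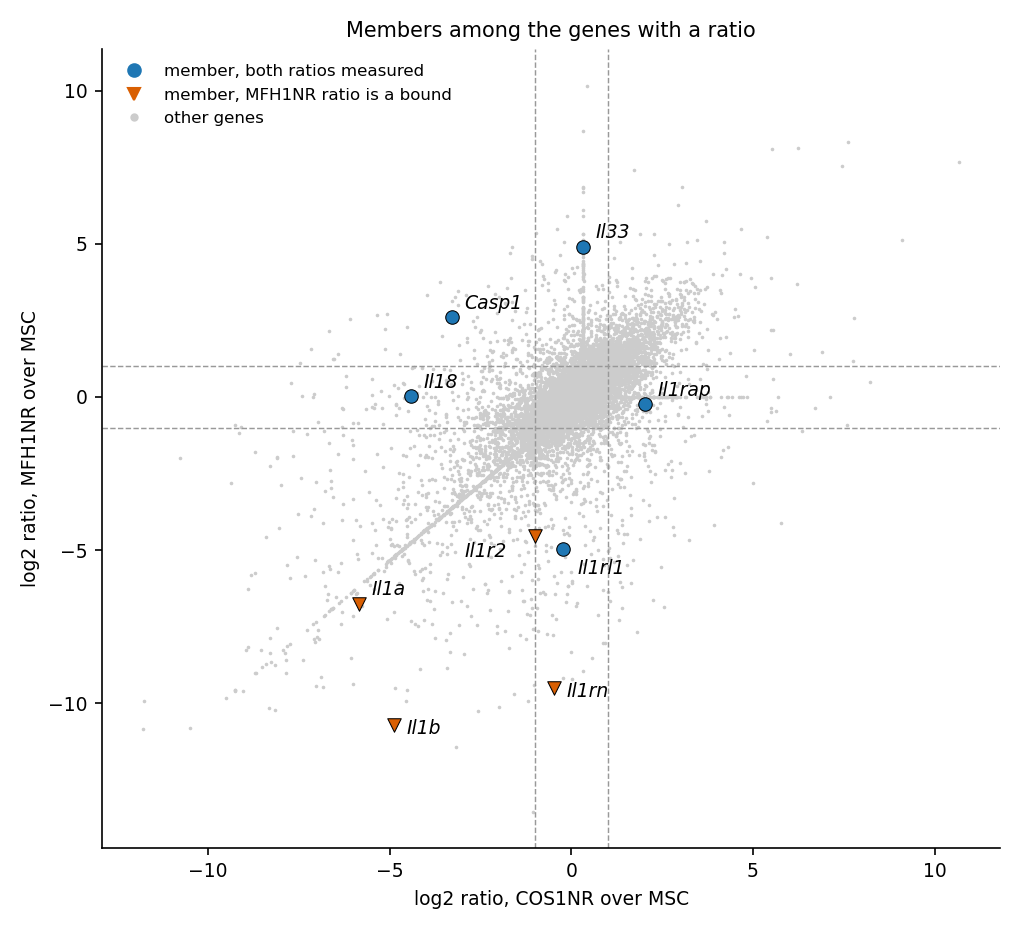
Log2 ratio of MFH1NR to MSCs against that of COS1NR to MSCs for 10010 genes (grey) and the 9 members (first probe of each), with dashed lines at 2-fold and triangles where the MFH1NR ratio is a bound. A level not well above background was raised to the limit of its array, which draws some grey points into lines. Il1a and Il1b lie low on both axes, Il1rn, Il1r2 and Il1rl1 low only in MFH1NR, and Casp1 low in COS1NR and high in MFH1NR.

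Of the receptor chains, Il1r2 and Il1rl1 were low in MFH1NR and Il1rap was high in COS1NR. Il1r2, the decoy receptor, read 416 in MSCs and 274 in COS1NR, and was not well above background in MFH1NR, at 25.4. COS1NR stood at the 2-fold threshold, with a log2 ratio of -0.99 ± 0.21 that ranged from -0.60 without scaling to -1.26 with spike-in scaling, and MFH1NR was at least 23.3-fold below MSCs and at least 11.7-fold below COS1NR. Il1rap, the chain shared by the receptors of IL-1, IL-33 and IL-36, had 387 for MSCs, 2065 for COS1NR and 551 for MFH1NR. It was 4.07-fold higher in COS1NR than in MSCs (log2 ratio 2.02 ± 0.20) and 4.82-fold higher than in MFH1NR. MSCs and MFH1NR were within 2-fold, at a log2 ratio of -0.24 that turned to 0.51 without scaling and to 0.28 with spike-in scaling.

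Il1rl1, which encodes the IL-33 receptor ST2, was measured by 2 probes designed on different RefSeq transcripts of the gene. The first read 4615 for MSCs, 5146 for COS1NR and 250 for MFH1NR. MSCs and COS1NR were within 2-fold, with a log2 ratio of -0.24 that turned to 0.16 without scaling, and MFH1NR was 31.1-fold below MSCs (log2 ratio -4.96 ± 0.21) and 26.4-fold below COS1NR. The second probe read 62.2 for MSCs, 223 for COS1NR and 53.6 for MFH1NR. On it COS1NR was highest, 2.73-fold above MSCs and 5.35-fold above MFH1NR, and MFH1NR was 1.96-fold below MSCs. The probes thus shared the order of COS1NR above MFH1NR but differed by 1.69 in log2 for COS1NR over MSCs and by 3.99 for MFH1NR over MSCs. For other genes, 9 pairs of probes in 10 differed by less than 0.91 and 0.99. MFH1NR therefore combined the highest level of the ligand Il33 with the lowest level on the first probe of the receptor gene. On the second probe MFH1NR and MSCs were within 2-fold (log2 ratio -0.97 ± 0.28), with close readings before scaling. The product of each transcript was not examined.

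The genes next to Il1r2 and Il1rl1 lie in the same cluster on chromosome 9. Il1r1, the signaling IL-1 receptor, had no named probe, so its level is not given. Il1rl2, the IL-36 receptor and the direct neighbour of Il1rl1, had 121 in MSCs and was not well above background in COS1NR (30.5) or MFH1NR (8.32), which bounded it at 5.21-fold and 6.79-fold lower. On the other side of Il1r2, Map4k4, a kinase gene looked up after the values were seen, had 10192 for MSCs, 12503 for COS1NR and 10481 for MFH1NR and was within 2-fold in every comparison.

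Casp1 showed opposite differences in the sarcomas. The probe read 792 for MSCs, 106 for COS1NR and 8154 for MFH1NR. COS1NR was 9.81-fold below MSCs (log2 ratio -3.29 ± 0.22) and MFH1NR was 6.10-fold above them (log2 ratio 2.61 ± 0.20). Between the lines, on the same slide, the difference was 59.8-fold, and 0.531% of all genes had a higher ratio of MFH1NR to COS1NR. Casp1 was measured by a single probe with 1 spot.

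Casp4 and Casp12, inflammatory caspases that lie directly beside Casp1 on chromosome 8, were low in COS1NR as well. Casp4, the sensor caspase for endotoxin in the cytosol, had 6278 for MSCs, 656 for COS1NR and 4064 for MFH1NR, and Casp12, named here after its values were seen, had 1088, 65.8 and 1879. COS1NR was 12.6-fold below MSCs for Casp4 and 21.7-fold for Casp12, and it was the lowest of the cultures for all 3 caspases. In MFH1NR the neighbours differed from each other. Casp4 was 2.61-fold below MSCs, which fell under 2-fold without scaling and with spike-in scaling. Casp12 was within 2-fold of MSCs at a log2 ratio of 0.03, while Casp1 was 6.10-fold above. Pdgfd, the next gene on that side and a growth factor gene, had 23.5 in MSCs and 44.1 in MFH1NR, and was not well above background in COS1NR, at 8.67.

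Compared directly on the same slide, MFH1NR had 5 of the 9 members at least 2-fold below COS1NR (Il1b, Il1rn, Il1r2, Il1rap and Il1rl1), against 15.1% of all genes, and 3 at least 2-fold above it (Il18, Il33 and Casp1), against 12.4%. Against MSCs and COS1NR alike, 4 members were at least 2-fold lower in MFH1NR (Il1b, Il1rn, Il1r2 and Il1rl1), against 7.44%, and 2 were higher (Il33 and Casp1), against 6.01%. The shares of all genes depended on the scaling while these member counts did not. With spike-in scaling 34.9% of all genes were higher in MFH1NR than in COS1NR and 17.8% higher than in both others, near the 3 and 2 of 9 members, and 7.12% and 4.21% were lower. Of the other 3, Il18 and Il1rap lay within 2-fold of MSCs in MFH1NR, and the Il1a bound against COS1NR stayed under 2-fold. Relative to COS1NR, MFH1NR was thus low in the antagonist and the decoy receptor along with Il1b, and high in the alarmin Il33, in Il18 and in the gene of the enzyme that processes IL-18.

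**Figure D3:**
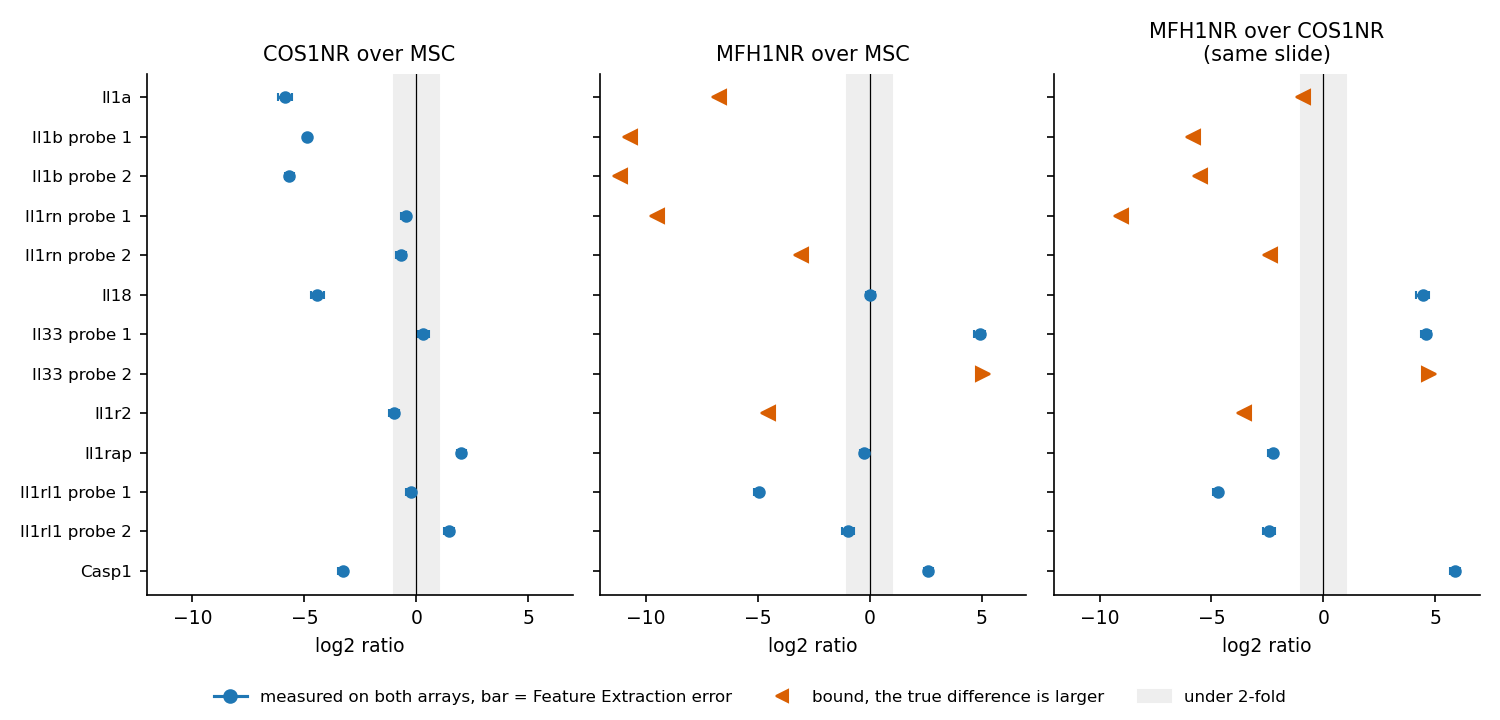
Log2 ratio of each member probe for COS1NR over MSCs, MFH1NR over MSCs and MFH1NR over COS1NR, with Feature Extraction errors as bars and arrowheads for bounds. The right panel compares arrays of the same slide, where Casp1 reaches 5.90 and the bound of the first Il1rn probe is -9.05.

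The wider pathway was described by lists of genes, chosen with earlier results of these data known. Over the genes compared, the median log2 ratio was 0.11 for COS1NR over MSCs, 0.02 for MFH1NR over MSCs and -0.09 for MFH1NR over COS1NR. Of the 10 IL-1 family ligands and antagonists, 9 had a probe and 7 were well above background somewhere, with medians of -2.44, -3.37 and -0.90 in the same order. Over the ligands well above background on all arrays the last 2 turned to 2.47 and 4.52, and without a filter on dim probes the first 2 turned to 0.30 and 0.021, so the direction of these medians rests on which dim genes are kept. Beyond the members these were, named after their values were seen, Il36b, which was well above background only in COS1NR, at 85.6, and Il1f10, which was so only in MFH1NR, at 75.2. Among 11 receptors and decoys, 9 had a probe and 6 were well above background somewhere, with medians of -0.61, -1.82 and -2.27. Il18bp, the soluble inhibitor of IL-18, had 339 for MSCs, 208 for COS1NR and 313 for MFH1NR, and was 2.14-fold below MSCs in COS1NR and 1.83-fold in MFH1NR.

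Of 16 inflammasome genes, 12 had a probe and 9 were well above background somewhere. COS1NR had 5 of the 9 at least 2-fold lower than MSCs, against 20.0% of all genes, and 1 higher, against 20.6%, with a median log2 ratio of -1.64. MFH1NR had 3 lower, against 21.6%, and 2 higher, against 19.3%, which is near the background. Its median was 0.03 and became -0.07 with the normexp background correction, 0.55 with spike-in scaling and 0.79 without scaling. Pycard, which encodes the adaptor ASC, had 873 for MSCs, 802 for COS1NR and 3941 for MFH1NR. It was 2.67-fold above MSCs in MFH1NR and 1.43-fold below them in COS1NR, so that the adaptor and Casp1 both were highest in MFH1NR. Lower in both lines were 3 of the 9, Casp4, Panx1 and Mefv, against 12.9% of all genes. Without scaling Panx1 alone of them was so, 1 of 9 against 8.49%. MFH1NR then had 1 of the 9 lower than MSCs, against 13.0% of all genes, and 4 higher, against 41.4%. With spike-in scaling Mefv and Panx1 were lower in both lines, 2 of 9 against 11.3%. Panx1, a membrane channel gene, had 176 in MSCs and was not well above background in COS1NR (6.26) or MFH1NR (6.27). Mefv, the gene of the sensor pyrin, had 69.9 in MSCs and 35.7 in MFH1NR, and was not well above background in COS1NR, at 13.2.

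Of 19 genes that carry the signal from the IL-1 receptor to NF-κB, 15 had a probe and the median moved little, to -0.54 in COS1NR and -0.07 in MFH1NR, the latter turning to 0.68 without scaling. In COS1NR 5 of the 15 were at least 2-fold lower, against 20.0% of all genes, and 1 was higher, against 20.6%. In MFH1NR 6 were lower, against 21.6%, and 1 was higher, against 19.3%. Myd88, the adaptor of the IL-1 receptor, had 699 for MSCs, 316 for COS1NR and 695 for MFH1NR, with log2 ratios of -1.54 and -0.76. Lower in both lines were 4 of the 15, Peli1, Irak2, Nfkb2 and Rela, against 12.9% of all genes. Without scaling only Peli1 and Irak2 were, 2 of 15 against 8.49%. MFH1NR then had 3 of the 15 lower than MSCs, against 13.0% of all genes, and 3 higher, against 41.4%. Peli1, a ubiquitin ligase that acts on IRAK1, had 540 for MSCs, 80.6 for COS1NR and 213 for MFH1NR. Rela, a subunit of NF-κB, had 6039, 3018 and 3484, with log2 ratios of -1.39 and -1.55, the latter -0.79 without scaling. The kinase gene Irak2 had 142 in MSCs and 52.6 in MFH1NR and was not well above background in COS1NR, at 5.97.

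The genes known to be induced by IL-1 in stromal cells differed more than the signaling genes. Of 22 genes, 18 had a probe. In COS1NR 9 of the 18 were at least 2-fold lower than in MSCs, against 20.0% of all genes, and 5 were higher, against 20.6%, with a median log2 ratio of -0.97. In MFH1NR 13 were lower, against 21.6%, and 1 was higher, against 19.3%, with a median of -3.93. Between the lines, 14 of 17 were lower in MFH1NR, against 15.1%, and 2 were higher, against 12.4%, with a median of -2.36. The collagenase gene Mmp13 had 5743 for MSCs, 93.4 for COS1NR and 56.2 for MFH1NR, which put it 80.8-fold and 172-fold below MSCs. Vcam1, an adhesion molecule for leukocytes, had 36358 for MSCs, 1611 for COS1NR and 470 for MFH1NR. Icam1, another such molecule, was lower in both lines with COS1NR below MFH1NR, at 23650, 658 and 4617. Both adhesion genes were thus highest in MSCs, and the lines were not in the same order for them.

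Of the cytokine and chemokine genes of this list, those named by size were low in MFH1NR, whereas COS1NR was low in some and high in others. Tnf had 1423 in MSCs and was not well above background in either line, which was at least 63.6-fold lower for COS1NR and at least 79.8-fold for MFH1NR. Cxcl2, a neutrophil attractant, had 14253 for MSCs, 1116 for COS1NR and 399 for MFH1NR. Ccl7, a monocyte attractant, had 37155, 24113 and 92.5, so COS1NR lay at the 2-fold threshold (log2 ratio -1.02) and MFH1NR was 678-fold below MSCs. The 5 genes higher in COS1NR, named after their values were seen, were Lcn2, Csf3, Il6, Cxcl1 and Nos2. Lcn2, which encodes a siderophore-binding protein, had 33.9 in MSCs and 8659 in COS1NR, and was not well above background in MFH1NR, at 23.1. Csf3, which encodes G-CSF, had 30.4 in MSCs and 1673 in COS1NR, with 20.6 and no call above background in MFH1NR. The gene higher in MFH1NR, also named after its values were seen, was Mmp3, a protease gene, at 372 for MSCs, 284 for COS1NR and 9802 for MFH1NR.

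**Figure D4:**
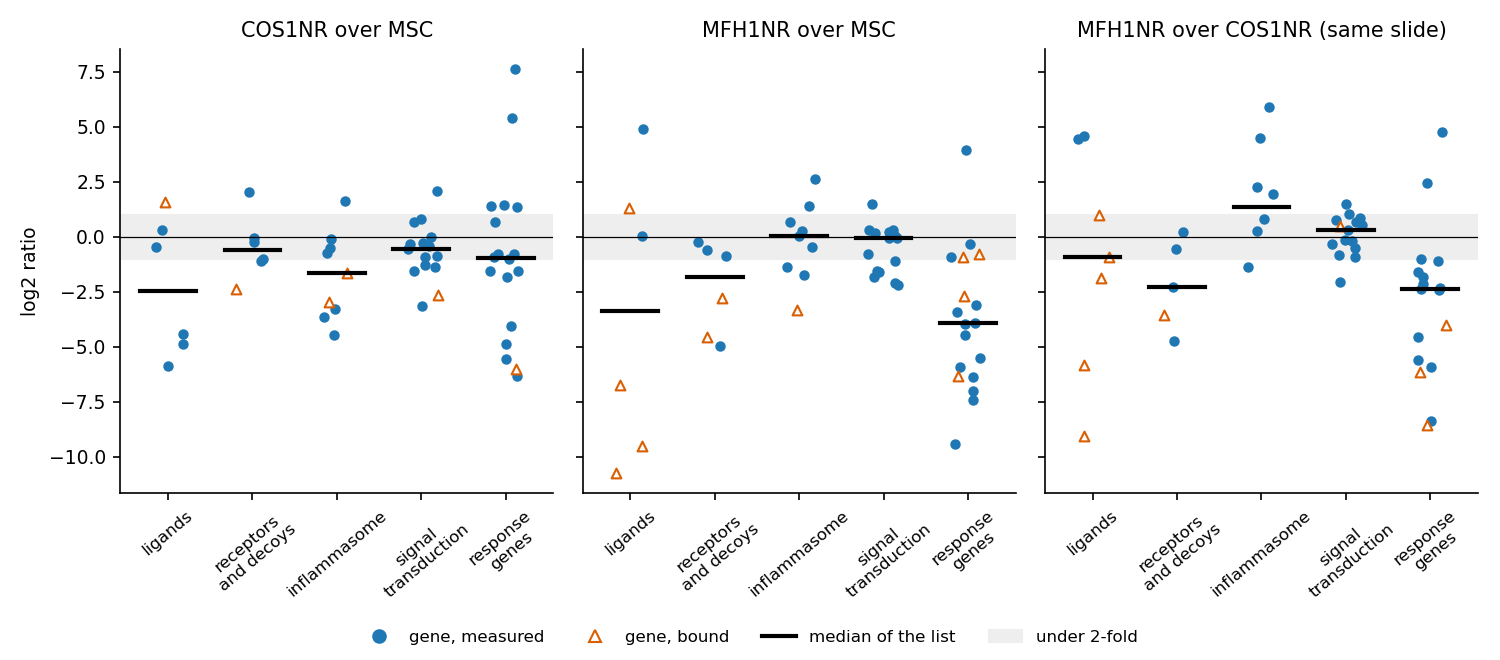
Log2 ratios of the genes of 5 pathway lists in 3 comparisons, with open triangles for bounds, black bars for the list medians and grey bands for differences under 2-fold. The medians cover genes well above background on at least 1 of the 2 arrays compared. In them a dim level stands at the limit of its array, also where no usable ratio results. Genes dim on both arrays are left out. The response genes have medians of -0.97, -3.93 and -2.36, and the inflammasome genes 1.36 in the right panel.

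Markers of macrophages were lower in both lines, as Il1a and Il1b were, and so were 7 of 12 markers of MSCs and fibroblasts. Of 15 macrophage and monocyte markers, 15 were well above background for MSCs, 7 for COS1NR and 6 for MFH1NR, and 15 of 15 were at least 2-fold lower in both lines, against 12.9% of all genes, or 13 of 15 against 8.49% without scaling. Their summed level over the 75th percentile of the array was 184 for MSCs, 12.4 for COS1NR and 4.96 for MFH1NR. The common leukocyte gene Ptprc had 57.5 in MSCs, and the macrophage gene Itgam had 336. Both were not well above background in COS1NR (14.3 and 6.44) and in MFH1NR (12.2 and 6.45), as were, named after their values were seen, Adgre1, Lyz2, Spi1, Cd163, Ctss and Mrc1. Cd68 had 7120 for MSCs, 3135 for COS1NR and 956 for MFH1NR, and Csf1r, the receptor for M-CSF, had 1238, 51.7 and 48.9. The part of macrophages in the MSC levels of the members was not tested. In COS1NR, where Il1b read 1337, 7 markers were well above background and the other 8 were not. These 7 were Cd68, Csf1r and, named after their values were seen, Cd14 at 3387, Laptm5 at 2605, Aif1 at 221, Tyrobp at 50.3 and Fcer1g at 39.8.

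**Figure D5:**
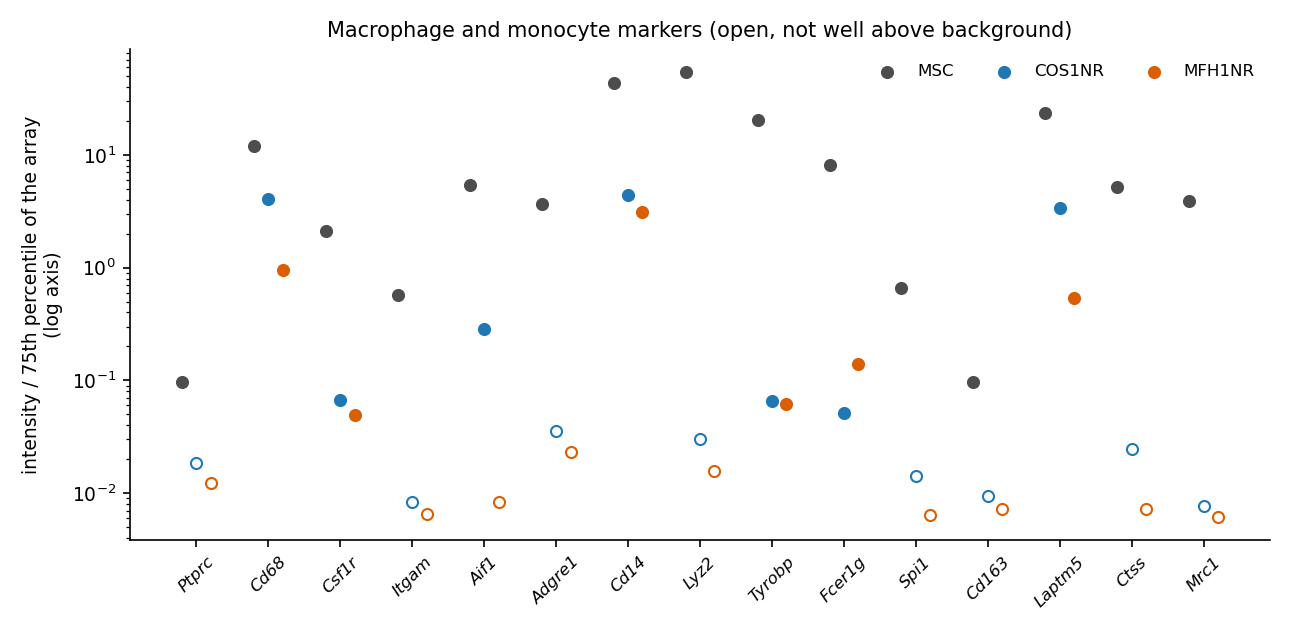
Intensity over the 75th percentile of the array (log axis) of 15 macrophage and monocyte markers, with open points where the probe was not well above background. The 15 MSC points lie above those of both lines, and 8 of the markers are open in COS1NR and 9 in MFH1NR.

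Markers of other blood cells were in part at background. Of 7 neutrophil markers with a probe, 2 were well above background in MSCs, 3 in COS1NR and none in MFH1NR, with a summed level of 1.53, 0.867 and 0.0641. Of these Ncf1, a subunit of the phagocyte oxidase named after its values were seen, had 707 in MSCs and was not well above background in COS1NR (8.16) or MFH1NR (8.36), at least 31.6-fold and 39.7-fold lower. S100a8 had 292 in COS1NR and was not well above background in MSCs (8.92) or MFH1NR (6.24), and Elane and S100a9 were not well above background on any array. Of 6 T cell markers 4, 2 and 1 were well above background in MSCs, COS1NR and MFH1NR, with Cd3d at 452, 893 and 627, while Cd3e and Cd3g were not on any array. Of 6 mast cell markers 3, 1 and 1 were so, with Cpa3 at 111 in MSCs only and Kit and Fcer1a on none. Tpsab1, named after its values were seen, had 1350, 1554 and 1631. The 2 B cell markers with a probe were well above background on none. The erythroid list had 1, 2 and 1 of 3, and the endothelial list 3, 2 and 1 of 5, with Pecam1 on none.

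Of 12 MSC and fibroblast markers, 12 were well above background for MSCs, 10 for COS1NR and 10 for MFH1NR. At least 2-fold below MSCs were 10 of them in COS1NR, against 20.0% of all genes, and 7 in MFH1NR, against 21.6%, of which 7 were lower in both, against 12.9%. Between the lines 6 of 11 were higher in MFH1NR, against 12.4%, and 1 was lower, against 15.1%. Their medians against MSCs were -3.98 and -2.11, and their summed level over the 75th percentile was 1446 on the MSC array, 225 on that of COS1NR and 371 on that of MFH1NR. In MSCs Nt5e had 1174, Eng 561, Thy1 2781 and Cd44 18465, so the defining markers of the labelled cells were present beside those of macrophages. Nt5e and Eng were at least 2-fold lower in both lines, and Thy1 was so in COS1NR only. Cd44 was within 2-fold of MSCs on its brighter probe, at 16309 in COS1NR and 16364 in MFH1NR. Of 6 osteoblast markers with a probe, 5 were well above background in MSCs, 4 in COS1NR and 5 in MFH1NR, so COS1NR, the osteosarcoma line, was not the culture with most of them. Of the 5 compared, 4 were at least 2-fold lower in COS1NR than in MSCs, against 20.0% of all genes, with a median of -1.89. In MFH1NR 3 of 6 were lower, against 21.6%, and 2 were higher, against 19.3%. Alpl had 2780 for MSCs, 986 for COS1NR and 2617 for MFH1NR, and Bglap had 223, 50.5 and 69.5. Sp7 was well above background only in MFH1NR, at 108. Spp1 and Ibsp, which encode bone matrix proteins and are named after their values were seen, differed in order. Spp1 had 36180 for MSCs, 22285 for COS1NR and 149222 for MFH1NR, whereas Ibsp had 5269, 491 and 51.7 and was 12.2-fold higher in COS1NR than in MFH1NR.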

How the data were processed

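RNA of MSCs, COS1NR and MFH1NR was measured on 1 whole rat genome array each. Per the file headers, the intensities that the authors deposited are the processed signals of Agilent Feature Extraction, with the background subtracted and each array detrended. The headers name version 10.5.1.1 and the labels version 9.1. The deposited series table held the same intensities on 3 of 3 arrays. The methods and the labels name different RNA isolation and labeling kits.

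Control and outlier spots were left out, spots of a probe were averaged in log2, and each array was scaled by its own 75th percentile over non-control spots. Probes were named through RefSeq accessions and the gene table of GRCr8, which named 16745 of 40816 probes. Where a gene had several probes, the brightest on average in log2 stood for it. It was compared if this probe passed the background call on 1 or more of the arrays compared, in at least 0.5 of its spots. A gene was called at 2-fold, bounds included. Over 10010 genes in all, the share called stands beside each count of members. The number of arrays limits the precision, and no test was made.

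The members and lists were chosen with earlier results of these data known. Named are all members by every probe, pathway list genes past 2-fold in both lines (up to 6 a list, by mean size of the log2 ratio, of which some are given), Il1r1, Myd88, Pycard and Il18bp, and up to 4 markers of each marker list in the order written. Other genes were named after their values were seen. Alternatives were 4 scalings, the series table, normexp on median spot signals (the files give no mean) with 50 as its offset, the mean of all probes, single further probes, stricter and no filters on dim probes, measured values in place of bounds, a 3-fold threshold and the mean over a list. Python 3.11.15, numpy 2.4.6, pandas 2.3.3, matplotlib 3.10.9 and, for normexp, R 4.3.3 with limma 3.58.1 were used.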

Additional observations from a re-analysis of the deposited data

Results flagged for a closer look

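Among the member probes and the other genes of the 5 pathway lists, 10 differed from MSCs in opposite directions in the lines, each by more than 2 probes of 1 gene typically differ (a median of 0.28 in log2 for COS1NR and 0.31 for MFH1NR, bounds included). The difference between the lines was not tested, with 1 array each. Its values below are log2 ratios of MFH1NR to COS1NR. Casp1 was lower in COS1NR and higher in MFH1NR than in MSCs, with a ratio of 5.90 between the lines. Pycard, the gene of the inflammasome adaptor, ran the same way at 1.94, with its COS1NR level 1.43-fold below that of MSCs. Mmp3 did so at 4.75, and the kinase gene Map3k7 at 0.66, where both differences from MSCs were under 2-fold. For Map3k7 the directions were not stable, as COS1NR was above MSCs without scaling (log2 ratio 0.048) and a second probe gave -0.71 for COS1NR and 0.012 for MFH1NR. The second probe of Il1rl1 ran the other way at -2.42, with COS1NR above and MFH1NR below MSCs. So did Il6 at -5.92 and Cxcl1 at -2.32, and as bounds Nos2 at -4.02, Csf3 at -6.16 and Lcn2 at -8.53. Before scaling some of these lay close to MSCs on 1 side. Pycard read 873 for MSCs and 802 for COS1NR. For MFH1NR, Cxcl1 read 42101 against 47648 in MSCs, and the second Il1rl1 probe 53.6 against 62.2. The MSC readings of Csf3 (30.4) and Lcn2 (33.9) lay near the MFH1NR limit of 30.1.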

How the results depend on the processing

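The series table was 1 of 11 alternatives and holds the same intensities, so its counts could not change. Counts within 1.5 times of the value reported were taken as unchanged. With spike-in scaling these included 5 members lower in COS1NR than in MSCs and 3 lower in both lines. Of 110 counts of members under the 11 alternatives, 5 left that range. They did so when genes had to be well above background on all arrays, which removes members that are dim in MFH1NR. Then 2 members were lower in COS1NR than in MSCs, against 15.1% of all genes, and 1 was lower in MFH1NR than in MSCs, against 16.2%. In MFH1NR 2 were lower than in COS1NR, against 12.1%, and 1 was lower than in both others, against 5.85%. In both lines 0 were lower, against 8.77%. These counts are out of the fewer members that pass that filter. The median of the ligand list turned to 2.47 for MFH1NR over MSCs and to 4.52 for MFH1NR over COS1NR under that filter, as fewer genes were left, and without any filter, which adds genes at background, it turned to 0.30 for COS1NR and 0.021 for MFH1NR. No scaling moved the median of all genes to 0.50 for COS1NR over MSCs, 0.77 for MFH1NR over MSCs and 0.27 for MFH1NR over COS1NR, and spike-in scaling to -0.16, 0.54 and 0.70. Of 227 member ratios, 92 moved by more than the spread between probes and 0 called ratios changed sign. Normexp brought several log2 ratios nearer to 0. Against MSCs, COS1NR was at -4.49 for Il1a, -3.21 for Il18 and -2.65 for Casp1, and MFH1NR at -5.21 for Il1a, -9.71 for Il1b, -7.95 for Il1rn, -2.83 for Il1r2 and 3.85 for Il33. Between the lines it gave -4.14 for Il1b, -7.54 for Il1rn, -2.14 for Il1r2, 3.18 for Il18, 3.79 for Il33 and 5.24 for Casp1. It moved Il1b in COS1NR the other way, to -5.58. With the mean of both probes Il1rl1 was 2.97 in log2 below MSCs in MFH1NR rather than 4.96. Brightness limits Il1a, Il1b, Il1rn and Il1r2 in MFH1NR to bounds, and 1 array per cell type leaves the spread between cultures unknown. No paired analysis was possible because each cell type has 1 array.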
